A study of Homo sapiens with 17 samples.

Results

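The 9 human genes described here encode enzymes of the phosphocreatine energy buffer, proteins that supply its creatine, and the oxygen store of muscle: the cytosolic creatine kinases CKM and CKB, the mitochondrial creatine kinases CKMT2, CKMT1A and CKMT1B, the oxygen-binding protein myoglobin (MB), the creatine synthesis enzymes GATM and GAMT, and the creatine transporter SLC6A8. They were taken from the expression table by gene name, and all 9 were found among its 20218 genes. The statistical test covered 14845 genes, those with 1 FPKM or more in 2 or more libraries. 7 of the 9 genes were among them, and CKMT1A and CKMT1B were not. FPKM is fragments scaled by transcript length and by the mapped total of the library, so levels are already per length and can be set side by side between genes.

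RNA was sequenced from a SHOX2 reporter line made in H9, a human embryonic stem cell line, after differentiation towards heart cells and cell sorting on GFP and mCherry. GFP+mCherry+ cells were sequenced in 2 libraries from day 40 and 3 from day 25, and both GFP-mCherry+ and GFP-mCherry- cells in 3 libraries from each day, which made 17 libraries in 6 groups. Every library comes from the same reporter line, and the labels give all of them the same cell type, sinoatrial node-like cells. SHOX2 is a transcription factor of the sinoatrial node, the pacemaker of the heart. The labels do not name the gene behind mCherry. The growth protocol starts all cells with CHIR99021, BMP4 and Activin A. It then describes a cardiomyocyte procedure with XAV939, and a sinoatrial procedure with cucurbitacin, retinoic acid, SU5402, XAV939, Tyrphostin AG 490 and the HDAC inhibitor chidamide. It does not say which procedure each sorted population came from. The labels do not state whether replicate libraries stem from different cultures. The p-values below therefore measure the spread between libraries, which may be technical.

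Creatine kinases move a phosphate group between ATP and creatine. In heart muscle, mitochondrial creatine kinase makes phosphocreatine where ATP is produced, and the cytosolic dimers turn it back into ATP beside the contractile filaments and the ion pumps. Cytosolic dimers are built from M subunits (CKM), which are typical of striated muscle, and B subunits (CKB), which are found in brain, smooth muscle and embryonic heart. GATM makes guanidinoacetate from arginine and glycine, and GAMT methylates guanidinoacetate to creatine, mostly outside the heart. Creatine is taken up into muscle by SLC6A8.

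The sort was checked on SHOX2 and on MYH6, which encodes a cardiac myosin heavy chain. SHOX2 was at 58.5 and 90.2 FPKM in day 40 GFP+mCherry+ libraries and at 49.0, 139 and 87.4 FPKM in day 25 ones, and it was at 2.41 FPKM or less in every other library. MYH6 was at 203 to 463 FPKM in the GFP+mCherry+ libraries and at 520 to 765 FPKM in GFP-mCherry+ libraries other than library 17, where it is listed at 0. That 0 may be a failed estimate, since TNNT2 was at 6929 FPKM and MYL7 at 14488 FPKM in the same library, and it enters the sum of cardiomyocyte markers below as 0. MYH6 was at 4.76 to 41.9 FPKM in GFP-mCherry- libraries. The FPKM of a library summed to between 566029 and 660085, and 12944 to 13793 genes reached 1 FPKM. Read depth is unknown because the file gives no counts. Libraries 13 (day 40 GFP+mCherry+) and 14 (day 40 GFP-mCherry+) stood apart, with 16493 and 16598 genes above 0 FPKM against 17108 to 17806 in the other 15 libraries. These are bulk samples, so fewer cells that express a gene and less of its RNA per cell cannot be told apart.

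Cardiomyocyte markers moved with the populations, and these values belong beside every comparison below. The summed FPKM of 8 markers (TNNT2, MYH6, MYH7, ACTN2, MYL7, TTN, RYR2 and NKX2-5) ranged at day 40 over 6070 to 9617 in GFP+mCherry+, 14665 to 25398 in GFP-mCherry+ and 552 to 2442 in GFP-mCherry- libraries. At day 25 it ranged over 5224 to 13261 in GFP+mCherry+, 19088 to 23830 in GFP-mCherry+ and 580 to 770.0 in GFP-mCherry- libraries. No marker of the list was at 0 in every library of a group. The 2442 belongs to library 12, the GFP-mCherry- library with the most cardiomyocyte marker RNA, against 552 and 636 in the other 2 libraries of its group. The sinoatrial list (SHOX2, TBX3, TBX18, ISL1 and HCN4) summed to 133 to 279 FPKM in GFP+mCherry+, 66.1 to 92.4 in GFP-mCherry+ and 32.4 to 132 in GFP-mCherry- libraries. SHOX2 is the gene of the reporter used in the sort, so its part of this sum follows from the sort. That part was 49.0 to 139 FPKM in GFP+mCherry+ libraries and 2.41 FPKM or less in all others. The sum without SHOX2 was not taken. Skeletal muscle, the other tissue rich in CKM and myoglobin, was represented by 10 measured markers that summed to at most 21.9 FPKM in any library. At day 40 they summed to 3.75 to 8.63 in GFP+mCherry+, 3.40 to 11.7 in GFP-mCherry+ and 2.73 to 4.09 in GFP-mCherry- libraries. The day 25 sums were 7.33 to 21.9, 6.87 to 13.4 and 2.23 to 2.69 in the same order. MYF5 was at 0 in every group, MYOD1 was at 0 in GFP-mCherry- libraries and at most 0.215 FPKM elsewhere, and MYOG reached 1.86 FPKM. Of 2 tested, 0 were called in GFP-mCherry+ against GFP-mCherry- cells at day 40 and 1, higher, at day 25. Over all genes 31.9% and 28.5% were called. Fibroblast markers (7 genes) ran the other way between the mCherry+ populations: at day 40 they summed to 11345 to 12347 FPKM in GFP+mCherry+, 1968 to 7306 in GFP-mCherry+ and 11187 to 23003 in GFP-mCherry- libraries, and at day 25 to 8501 to 14119 in GFP+mCherry+, 2905 to 4026 in GFP-mCherry+ and 7082 to 8679 in GFP-mCherry- libraries. The part of these cell types in the differences below was not tested.

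The sequence upstream of the start is shown for the 3 creatine kinases that were expressed, since CKM and CKMT2 were called between the sorted populations and CKB was not. The letters are the 250 bases before the RefSeq start on GRCh38.p14, read 5′ to 3′ along the gene's strand. CKM lies at chr19:45322876-45323125 (minus strand), CKB at chr14:103522831-103523080 (minus strand) and CKMT2 at chr5:81233072-81233321 (plus strand). Capitals mark matches, on either strand, to the E-box CANNTG, the CCAAT box, the TATA box TATAAA, the nuclear receptor half-site AGGTCA, and the MEF2 and CArG motifs.
CKM: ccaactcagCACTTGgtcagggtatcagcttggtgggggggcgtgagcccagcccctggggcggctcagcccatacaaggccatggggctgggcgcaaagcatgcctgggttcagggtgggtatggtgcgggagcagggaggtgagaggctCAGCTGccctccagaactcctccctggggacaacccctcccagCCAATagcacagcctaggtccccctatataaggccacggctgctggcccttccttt
CKB: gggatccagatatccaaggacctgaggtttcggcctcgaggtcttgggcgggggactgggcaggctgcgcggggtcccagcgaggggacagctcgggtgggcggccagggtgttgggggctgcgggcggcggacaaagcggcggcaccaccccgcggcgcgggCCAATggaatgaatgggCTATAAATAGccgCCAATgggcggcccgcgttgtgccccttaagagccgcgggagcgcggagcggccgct
CKMT2: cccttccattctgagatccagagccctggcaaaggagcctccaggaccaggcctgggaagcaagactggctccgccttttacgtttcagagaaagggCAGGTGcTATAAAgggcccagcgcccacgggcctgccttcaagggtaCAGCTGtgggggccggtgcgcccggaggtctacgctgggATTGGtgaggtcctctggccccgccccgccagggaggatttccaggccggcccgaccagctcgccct

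The CKM window held 2 E-box matches, beginning 241 and 99 bases before the start, and 1 CCAAT box at 56 bases. The CKMT2 window held 2 E-box matches, at 153 and 106 bases, 1 TATA box at 146 bases and 1 CCAAT box (in reverse, ATTGG) at 67 bases. The CKB window held no E-box match. It held 2 CCAAT boxes, at 87 and 57 bases, and a MEF2 match at 70 bases that contains the TATA box match at 69 bases. Among the same windows of all 35116 RefSeq promoters, 61.8% held an E-box match, 32.0% a CCAAT box, 10.7% the TATA box, 12.1% the half-site, 2.80% a MEF2 match and 1.16% a CArG match. The half-site and the CArG motif had no match in these 3 windows. GC content was 64.4% for CKM, 70.8% for CKB and 65.6% for CKMT2, against a median of 58.0% over all promoters. These matches describe the letters of the windows only. The RefSeq table matched 8 of the 9 genes and had no entry for GAMT.

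CKM encodes the muscle subunit of cytosolic creatine kinase (hg19 chromosome 19, 45809672 to 45826235). CKM at day 40 was at 47.3 and 6.75 FPKM in GFP+mCherry+ libraries, at 395, 173 and 321 FPKM in GFP-mCherry+ libraries and at 38.6, 2.64 and 4.40 FPKM in GFP-mCherry- libraries. CKM at day 25 was at 10.0, 33.7 and 52.0 FPKM in GFP+mCherry+ libraries, at 315, 483 and 417 FPKM in GFP-mCherry+ libraries and at 3.63, 4.83 and 4.36 FPKM in GFP-mCherry- libraries. Every GFP-mCherry+ library stood above every library of the other populations on both days. The GFP+mCherry+ and GFP-mCherry- libraries overlapped at day 40, where library 12 of GFP-mCherry- held 38.6 FPKM, and did not overlap at day 25.

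CKM averaged 27.0 ± 28.7 FPKM in day 40 GFP+mCherry+ cells (SD, n = 2) and 296 ± 113 FPKM in day 40 GFP-mCherry+ cells (SD, n = 3), which was 11.0-fold lower in GFP+mCherry+ cells. At day 25 it averaged 31.9 ± 21.0 FPKM in GFP+mCherry+ cells and 405 ± 84.5 FPKM in GFP-mCherry+ cells (SD, n = 3 each), which was 12.7-fold lower in GFP+mCherry+ cells. Differences were tested with limma on log2(FPKM + 1), a scale that understates the change of low genes, and a gene was called at a Benjamini-Hochberg adjusted p below 0.05 over all genes tested. The difference in log2(FPKM + 1), GFP+mCherry+ minus GFP-mCherry+, was -3.86 ± 0.87 (SE) at day 40 (adjusted p = 0.0047) and -3.87 ± 0.78 at day 25 (adjusted p = 0.00344). The day 40 call rests on library 13: without it the difference was -2.54 with an adjusted p of 0.134, without library 10 it was -5.18 with an adjusted p of 0.0026, and without libraries 13 and 14 it was -2.89 with an adjusted p of 0.0916 (0.0125 when library 12 was left out as well). The day 25 call held under each of the 18 alternatives, with a difference of -3.22 without library 1.

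Against GFP-mCherry- cells, CKM was called higher in GFP-mCherry+ cells on both days. The difference in log2(FPKM + 1) was 4.93 ± 0.78 at day 40 (adjusted p = 0.000209) and 6.25 ± 0.78 at day 25 (adjusted p = 2.6e-05). In FPKM the mean was 19.5-fold higher at day 40, where library 12 carried most of the GFP-mCherry- level, and 94.8-fold higher at day 25. The day 40 difference was 5.99 on the log2 scale without library 12 and 4.26 without library 15. GFP+mCherry+ cells did not reach the threshold against GFP-mCherry- cells: the difference was 1.07 ± 0.87 at day 40 (95% interval -0.76 to 2.91, adjusted p = 0.441) and 2.38 ± 0.78 at day 25 (95% interval 0.74 to 4.02, adjusted p = 0.0601). The day 25 difference passed the threshold under 6 of 18 alternatives, among them without library 1 (3.03, adjusted p = 0.0304) and with the block on consecutive library numbers (2.38, adjusted p = 0.00356). The day 40 difference ranged over -0.25 (without library 10) to 3.45 (without libraries 12, 13 and 14), and it passed the threshold under 1 of 17 alternatives, without libraries 12, 13 and 14 (adjusted p = 0.00669).

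CKB encodes the brain subunit (hg19 chromosome 14, 103985996 to 103989448). CKB at day 40 was at 148 and 187 FPKM in GFP+mCherry+ libraries, at 188, 63.2 and 158 FPKM in GFP-mCherry+ libraries and at 116, 331 and 314 FPKM in GFP-mCherry- libraries. CKB at day 25 was at 213, 289 and 358 FPKM in GFP+mCherry+ libraries, at 304, 286 and 151 FPKM in GFP-mCherry+ libraries and at 105, 129 and 104 FPKM in GFP-mCherry- libraries. Unlike CKM, its libraries overlapped between GFP+mCherry+ and GFP-mCherry+ cells on both days. The day 25 GFP-mCherry- libraries lay below those of both other populations at that day, and at day 40 libraries 15 and 18 of GFP-mCherry- cells lay above all of them.

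CKB was called in no comparison of the fit over all 17 libraries, and alternatives moved it past the threshold in some. GFP+mCherry+ minus GFP-mCherry+ was 0.42 ± 0.47 at day 40 (95% interval -0.57 to 1.42, adjusted p = 0.538) and 0.25 ± 0.42 at day 25 (95% interval -0.64 to 1.14, adjusted p = 0.718). GFP-mCherry+ minus GFP-mCherry- was -0.89 ± 0.42 at day 40 (adjusted p = 0.119) and 1.07 ± 0.42 at day 25 (adjusted p = 0.0681). Without library 12, the day 40 difference of CKB was -1.38 and passed the threshold (adjusted p = 0.0145). At day 25, CKB passed the threshold under 7 of 18 alternatives in that comparison, 1 of which left out library 8 (1.39, adjusted p = 0.0377). The sign of this difference thus differed between the days, and the change between the days, day 40 minus day 25, was -1.95 ± 0.59 with an unadjusted p of 0.00452 and an adjusted p of 0.436. GFP+mCherry+ minus GFP-mCherry- gave -0.46 ± 0.47 at day 40 (adjusted p = 0.546) and 1.31 ± 0.42 at day 25 (adjusted p = 0.0544). That day 25 difference passed the threshold under 7 of 18 alternatives, with adjusted p down to 7.2e-05 (sample quality weights). Markers of neurons, another cell type rich in CKB, summed to 149 to 259 FPKM in GFP+mCherry+, 17.7 to 52.3 in GFP-mCherry+ and 49.1 to 118 in GFP-mCherry- libraries at day 40. At day 25 they summed to 111 to 220.1 in GFP+mCherry+, 34.4 to 41.1 in GFP-mCherry+ and 53.2 to 63.4 in GFP-mCherry- libraries, and no marker of the 8 was at 0 throughout a group. Their part in the CKB level was not tested.

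**Figure D1:**
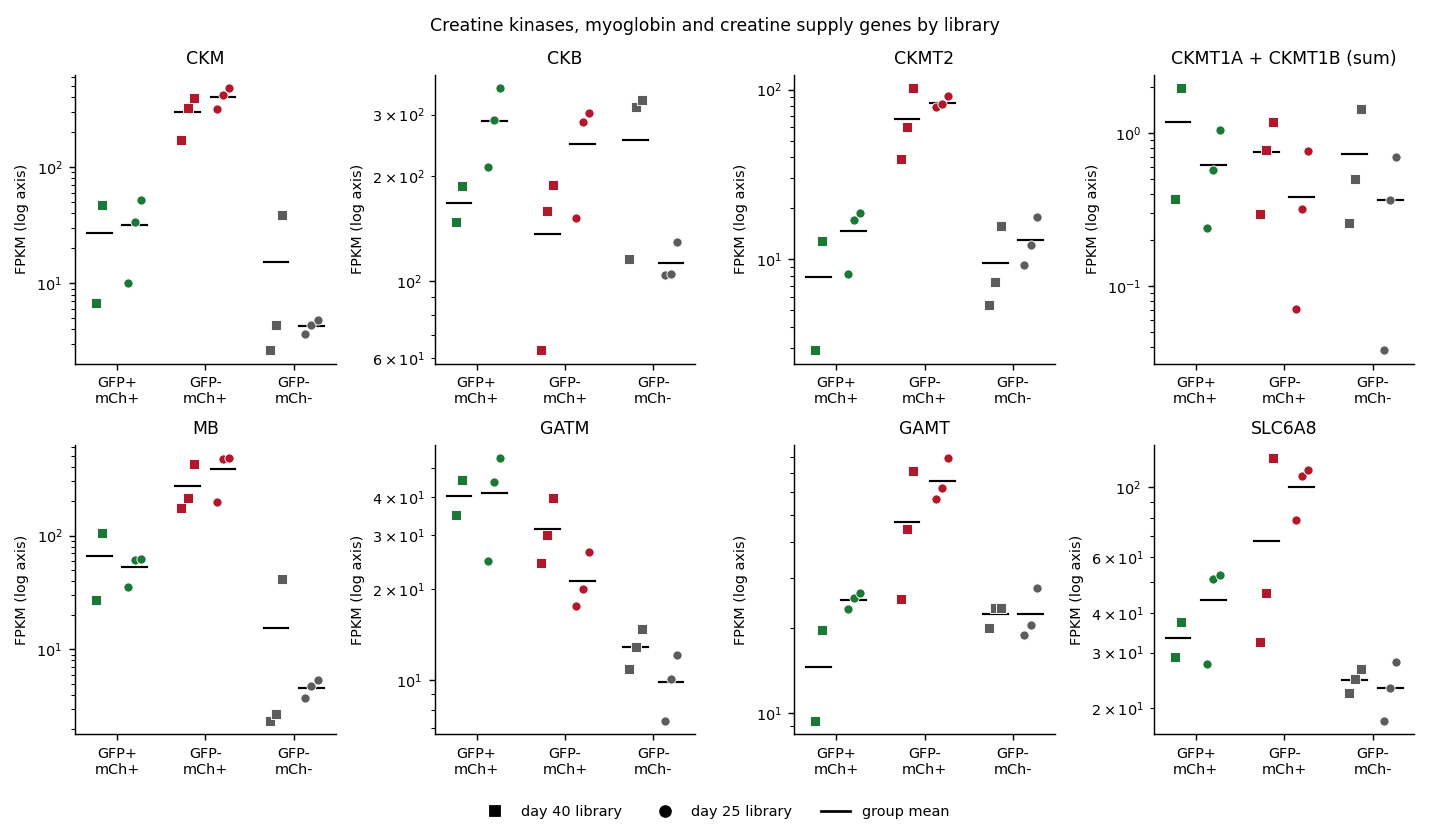
FPKM on a log axis of the creatine kinases, myoglobin and the creatine supply genes in each of the 17 libraries (squares day 40, circles day 25), by sorted population; mCh is mCherry and black lines are group means. CKM, CKMT2 and MB stand highest in GFP-mCherry+ cells, GATM is highest on average in GFP+mCherry+ cells, and the CKB libraries of GFP+mCherry+ and GFP-mCherry+ cells overlap.

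The make-up of the cytosolic enzyme's RNA therefore differed between the populations. CKM made up 24.2% and 3.49% of the summed CKM and CKB FPKM in day 40 GFP+mCherry+ libraries, 67.8%, 73.2% and 66.9% in GFP-mCherry+ libraries and 25.0%, 0.791% and 1.38% in GFP-mCherry- libraries. The day 25 share was 4.51%, 10.5% and 12.7% in GFP+mCherry+ libraries, 50.9%, 62.8% and 73.4% in GFP-mCherry+ libraries and 3.34%, 3.61% and 4.03% in GFP-mCherry- libraries. CKM was the larger share in all 6 GFP-mCherry+ libraries, and CKB was the larger share in the other 11. The mean share of CKM in GFP+mCherry+ cells minus that in GFP-mCherry+ cells was -55.5 percentage points at day 40 (13.9% ± 14.7, n = 2, against 69.3% ± 3.40, n = 3, SD) and -53.2 points at day 25 (9.22% ± 4.23 against 62.4% ± 11.2, SD, n = 3 each). Each of these had a two-sided exact permutation p of 0.1, the smallest that groups of this size allow. GFP-mCherry+ cells stood 60.3 points above GFP-mCherry- cells at day 40 and 58.7 points at day 25, again with the smallest exact permutation p of 0.1. Day 40 and day 25 libraries of a population overlapped in this share: day 40 was 4.65 points above day 25 in GFP+mCherry+ cells (exact permutation p = 0.8), 6.92 points in GFP-mCherry+ cells (exact permutation p = 0.5) and 5.39 points in GFP-mCherry- cells (exact permutation p = 1.0). In GFP+mCherry+ and GFP-mCherry- cells the sign of this difference turned on library 10 and library 12: it was -5.73 points without library 10 and -2.57 points without library 12.

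**Figure D2:**
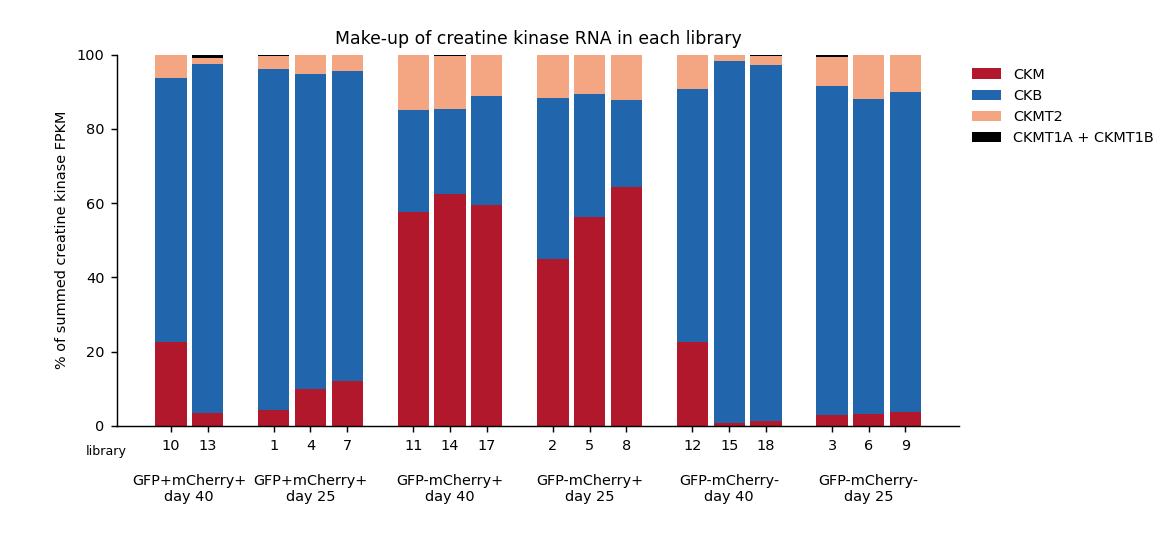
Stacked bars giving the percent of the summed creatine kinase FPKM that each gene contributed, 1 bar per library, grouped by sorted population and day. CKM takes 44.9% to 64.5% in the 6 GFP-mCherry+ libraries and at most 22.7% in the others, and CKMT1A plus CKMT1B take at most 1.00%.

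CKMT2 encodes the sarcomeric mitochondrial creatine kinase of striated muscle (hg19 chromosome 5, 80529104 to 80562216). CKMT2 at day 40 was at 12.8 and 2.91 FPKM in GFP+mCherry+ libraries, at 103, 39.0 and 60.1 FPKM in GFP-mCherry+ libraries and at 15.7, 5.37 and 7.37 FPKM in GFP-mCherry- libraries. CKMT2 at day 25 was at 8.15, 17.0 and 18.8 FPKM in GFP+mCherry+ libraries, at 81.8, 91.2 and 78.8 FPKM in GFP-mCherry+ libraries and at 9.22, 17.9 and 12.2 FPKM in GFP-mCherry- libraries. The GFP-mCherry+ libraries stood above all others on both days, and GFP+mCherry+ and GFP-mCherry- libraries overlapped on both.

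CKMT2 was 8.54-fold lower in GFP+mCherry+ than in GFP-mCherry+ cells at day 40 and 5.74-fold lower at day 25. The differences in log2(FPKM + 1) were -3.11 ± 0.52 at day 40 (adjusted p = 0.000852) and -2.52 ± 0.46 at day 25 (adjusted p = 0.00214), and both were called under every alternative run. The size at day 40 depended on which GFP+mCherry+ library was kept: the difference was -4.02 without library 10 and -2.19 without library 13. It was called higher in GFP-mCherry+ than in GFP-mCherry- cells at day 40 (2.72 ± 0.46, adjusted p = 0.000395) and at day 25 (2.64 ± 0.46, adjusted p = 0.000518). GFP+mCherry+ minus GFP-mCherry- was -0.39 ± 0.52 at day 40 (95% interval -1.49 to 0.71) and 0.12 ± 0.46 at day 25 (95% interval -0.87 to 1.10), with adjusted p of 0.657 and 0.906. CKMT2 took 3.81% ± 3.32 of all creatine kinase FPKM in day 40 GFP+mCherry+ libraries (SD, n = 2), 13.4% ± 2.02 in GFP-mCherry+ libraries and 4.35% ± 4.24 in GFP-mCherry- libraries (SD, n = 3 each). At day 25 its share was 4.29% ± 0.742 in GFP+mCherry+, 11.5% ± 0.797 in GFP-mCherry+ and 9.87% ± 1.99 in GFP-mCherry- libraries (SD, n = 3 each).

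CKMT1A and CKMT1B are neighbouring copies of the ubiquitous mitochondrial creatine kinase on chromosome 15 (hg19, 43985084 to 43991420 and 43885252 to 43897099). They shared 66.7% and 57.4% of the 50-base windows of their annotated transcripts, so reads could not always be split between them, and the value of each is uncertain. Their sum was at 0.374 and 1.99 FPKM in day 40 GFP+mCherry+ libraries, at 0.296, 1.19 and 0.779 FPKM in GFP-mCherry+ libraries and at 0.260, 0.505 and 1.43 FPKM in GFP-mCherry- libraries. The day 25 sum was at 1.05, 0.577 and 0.242 FPKM in GFP+mCherry+ libraries, at 0.768, 0.318 and 0.0712 FPKM in GFP-mCherry+ libraries and at 0.701, 0.367 and 0.0381 FPKM in GFP-mCherry- libraries. All 6 groups overlapped. CKMT2 exceeded the sum in every library, with CKMT2 at 2.91 FPKM or more and the sum at 1.99 FPKM or less.

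MB encodes myoglobin, which binds oxygen in the cytosol of heart and skeletal muscle (hg19 chromosome 22, 36002811 to 36033998). The table holds 2 rows of that name, and the second, at 0.0215 FPKM or less, was added to the first. MB at day 40 was at 106 and 27.3 FPKM in GFP+mCherry+ libraries, at 428, 214 and 176 FPKM in GFP-mCherry+ libraries and at 41.7, 2.70 and 2.35 FPKM in GFP-mCherry- libraries. MB at day 25 was at 35.1, 62.7 and 60.6 FPKM in GFP+mCherry+ libraries, at 199, 480.1 and 475 FPKM in GFP-mCherry+ libraries and at 3.73, 5.34 and 4.78 FPKM in GFP-mCherry- libraries. The 3 populations did not overlap at day 25. At day 40 library 12 of GFP-mCherry- cells, with 41.7 FPKM, lay between the 2 GFP+mCherry+ libraries.

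At day 25 MB in GFP+mCherry+ cells was called both higher than in GFP-mCherry- cells and lower than in GFP-mCherry+ cells. GFP+mCherry+ minus GFP-mCherry- was 2.77 ± 0.83 at day 40 (adjusted p = 0.0413) and 3.23 ± 0.74 at day 25 (adjusted p = 0.0116). The day 40 call held under 10 of 17 alternatives. Fits with no filter on low values and with only the compared groups were among those that lost it. The day 40 call was lost without library 10 (1.81, adjusted p = 0.254), library 13 (3.73, adjusted p = 0.0611), library 15 (2.20, adjusted p = 0.134) or library 18 (2.13, adjusted p = 0.159), and the difference was 3.97 without library 12. GFP+mCherry+ minus GFP-mCherry+ was -2.20 ± 0.83 at day 40 (adjusted p = 0.0627, and 0.0333 with a difference of -3.17 without library 10) and -2.78 ± 0.74 at day 25 (adjusted p = 0.0163). The day 25 call was lost without library 1 (-2.51, adjusted p = 0.0603), library 5 (-2.57, adjusted p = 0.0614) or library 8 (-2.57, adjusted p = 0.061). GFP-mCherry+ minus GFP-mCherry- was 4.97 ± 0.74 at day 40 (adjusted p = 0.000145) and 6.00 ± 0.74 at day 25 (adjusted p = 2.61e-05), and both held under every alternative run. The day 40 difference was 6.17 without library 12 and 4.34 without library 18. Markers of red cell precursors, which make the related haemoglobins, summed to at most 5.32 FPKM in any library.

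CKM and MB differed more between the mCherry+ populations than TNNT2, the cardiac troponin T gene, at day 25. TNNT2 was the only cardiomyocyte marker used as a reference, and the listed markers did not differ alike. At day 25 NKX2-5 was at 8.87, 14.0 and 15.8 FPKM in GFP+mCherry+ and at 149, 186 and 215 FPKM in GFP-mCherry+ libraries. MYL7 was at 3876, 10125 and 8829 FPKM in GFP+mCherry+ and at 13177, 15490 and 15822 FPKM in GFP-mCherry+ libraries. FPKM of CKM per FPKM of TNNT2 averaged 0.0168 ± 0.00869 in GFP+mCherry+ and 0.0756 ± 0.00498 in GFP-mCherry+ libraries at day 25 (SD, n = 3 each), without overlap. At day 40 it averaged 0.0110 ± 0.0112 in GFP+mCherry+ libraries (SD, n = 2) and 0.0449 ± 0.0123 in GFP-mCherry+ libraries (SD, n = 3), also without overlap. MB per TNNT2 averaged 0.0306 ± 0.00457 in GFP+mCherry+ and 0.0701 ± 0.0217 in GFP-mCherry+ libraries at day 25 (SD, n = 3 each), without overlap, and the libraries overlapped at day 40. In GFP-mCherry- libraries CKM per TNNT2 was 0.0301 ± 0.0164 at day 40 and 0.0331 ± 0.00992 at day 25 (SD, n = 3 each). No test was run on these ratios.

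GATM encodes arginine:glycine amidinotransferase, the first enzyme of creatine synthesis (hg19 chromosome 15, 45653322 to 45694525), and its order of groups was not that of CKM, MB and CKMT2. GATM at day 40 was at 45.7 and 35.0 FPKM in GFP+mCherry+ libraries, at 24.4, 30.2 and 39.9 FPKM in GFP-mCherry+ libraries and at 12.9, 10.9 and 14.8 FPKM in GFP-mCherry- libraries. GATM at day 25 was at 24.7, 45.1 and 53.8 FPKM in GFP+mCherry+ libraries, at 26.4, 17.6 and 19.9 FPKM in GFP-mCherry+ libraries and at 12.2, 7.36 and 10.1 FPKM in GFP-mCherry- libraries. The mCherry+ populations overlapped on both days, and every GFP-mCherry- library lay below all of them.

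GATM was called higher in GFP+mCherry+ than in GFP-mCherry- cells at day 40 (1.57 ± 0.31, adjusted p = 0.00404) and at day 25 (1.91 ± 0.27, adjusted p = 0.000382), and both calls held under every alternative run. GFP+mCherry+ minus GFP-mCherry+ was 0.36 ± 0.31 at day 40 (adjusted p = 0.409) and 0.87 ± 0.27 at day 25 (adjusted p = 0.0345). The day 25 call held under 11 of 18 alternatives and was lost without library 4 (0.77, adjusted p = 0.107), library 5 (0.75, adjusted p = 0.124), library 7 (0.65, adjusted p = 0.155) or library 8 (0.83, adjusted p = 0.0989). It was also lost with the block on consecutive library numbers (adjusted p = 0.0567). GFP-mCherry+ minus GFP-mCherry- was 1.21 ± 0.27 at day 40 (adjusted p = 0.0031) and 1.04 ± 0.27 at day 25 (adjusted p = 0.00914), and the day 25 call was lost without library 6 (0.86, adjusted p = 0.0522). Liver, which makes creatine, was represented by 8 hepatic markers. They summed to 548 to 671 FPKM in GFP+mCherry+, 185 to 438 in GFP-mCherry+ and 990.2 to 2090 in GFP-mCherry- libraries at day 40. At day 25 they summed to 680 to 1761 in GFP+mCherry+, 133 to 734 in GFP-mCherry+ and 325 to 570.2 in GFP-mCherry- libraries. In GFP+mCherry+ against GFP-mCherry+ cells, 6 of the 8 were called higher at day 25 and 1 of the 8 at day 40. Over all genes 20.4% and 25.5% were called there in either direction. Against GFP-mCherry- cells, 2 of the 8 were called higher in GFP+mCherry+ cells at day 25 and 2 lower at day 40. Over all genes 11.1% and 11.8% were called there. The part of the hepatic markers in the GATM level was not tested. A transcript annotated antisense to GATM covers 3.28% of its exonic bases, and no source used here says whether strand was used in counting.

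GAMT encodes guanidinoacetate methyltransferase, which completes creatine synthesis (hg19 chromosome 19, 1397091 to 1401569). GAMT at day 40 was at 19.7 and 9.39 FPKM in GFP+mCherry+ libraries, at 71.3, 25.2 and 44.7 FPKM in GFP-mCherry+ libraries and at 23.4, 19.9 and 23.5 FPKM in GFP-mCherry- libraries. GAMT at day 25 was at 25.4, 26.5 and 23.4 FPKM in GFP+mCherry+ libraries, at 56.9, 61.8 and 79.0 FPKM in GFP-mCherry+ libraries and at 27.5, 18.9 and 20.4 FPKM in GFP-mCherry- libraries. The GFP-mCherry+ libraries lay above all libraries of the other populations within each day.

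GFP+mCherry+ minus GFP-mCherry+ was -1.59 ± 0.34 at day 40 (adjusted p = 0.0036) and -1.35 ± 0.31 at day 25 (adjusted p = 0.00687). The day 40 call was lost without library 13 (-1.10, adjusted p = 0.105) and in a fit of those groups alone (adjusted p = 0.0777). GFP-mCherry+ minus GFP-mCherry- was 0.93 ± 0.31 at day 40 (adjusted p = 0.029) and 1.53 ± 0.31 at day 25 (adjusted p = 0.00135). The day 40 call was lost without library 11 (0.57, adjusted p = 0.15), library 15 (0.85, adjusted p = 0.0935), library 17 (0.91, adjusted p = 0.0709) or library 18 (0.97, adjusted p = 0.055). GFP+mCherry+ minus GFP-mCherry- was -0.66 ± 0.34 at day 40 (adjusted p = 0.215) and 0.18 ± 0.31 at day 25 (adjusted p = 0.754). The ratio of GAMT to GATM was 0.431 and 0.268 in day 40 GFP+mCherry+ libraries, 2.93, 0.834 and 1.12 in GFP-mCherry+ libraries and 1.82, 1.83 and 1.59 in GFP-mCherry- libraries. The day 25 ratio was 1.03, 0.589 and 0.434 in GFP+mCherry+ libraries, 2.16, 3.51 and 3.96 in GFP-mCherry+ libraries and 2.26, 2.56 and 2.02 in GFP-mCherry- libraries. The ratio in GFP+mCherry+ libraries lay below both other populations on each day, and it was not tested.

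SLC6A8 encodes the plasma membrane creatine transporter (hg19 chromosome X, 152953554 to 152962048). SLC6A8 at day 40 was at 37.6 and 29.0 FPKM in GFP+mCherry+ libraries, at 124, 32.5 and 46.3 FPKM in GFP-mCherry+ libraries and at 22.4, 24.7 and 26.7 FPKM in GFP-mCherry- libraries. SLC6A8 at day 25 was at 27.5, 51.4 and 52.9 FPKM in GFP+mCherry+ libraries, at 114, 109 and 78.7 FPKM in GFP-mCherry+ libraries and at 28.0, 23.1 and 18.2 FPKM in GFP-mCherry- libraries. At day 40, library 11 stood far above the other GFP-mCherry+ libraries, and the mCherry+ populations overlapped. They did not overlap at day 25.

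GFP+mCherry+ minus GFP-mCherry+ was -0.77 ± 0.41 at day 40 (adjusted p = 0.179) and -1.21 ± 0.37 at day 25 (adjusted p = 0.0292). The day 25 call was lost without library 1 (-0.91, adjusted p = 0.123), library 2 (-1.11, adjusted p = 0.0831) or library 5 (-1.15, adjusted p = 0.0884). At day 40 the difference passed the threshold without library 14 (-1.17, adjusted p = 0.0348). GFP-mCherry+ minus GFP-mCherry- was 1.19 ± 0.37 at day 40 (adjusted p = 0.0213) and 2.07 ± 0.37 at day 25 (adjusted p = 0.000539). The day 40 call was lost without library 11 (0.64, adjusted p = 0.102), library 12 (1.13, adjusted p = 0.0541) or library 15 (1.19, adjusted p = 0.0552). GFP+mCherry+ minus GFP-mCherry- was 0.41 ± 0.41 at day 40 (adjusted p = 0.539) and 0.86 ± 0.37 at day 25 (adjusted p = 0.151). SLC6A8 shared 9.30% of its 50-base transcript windows with other annotated genes, so part of its reads could be split or lost. The pseudogene SLC6A10P alone shared 6.09% of all SLC6A8 windows.

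Counted over the set, 3 of the 7 tested genes were called in GFP+mCherry+ against GFP-mCherry+ cells at day 40, all lower, where 25.5% of all genes tested were called. At day 25, 6 of 7 were called, 5 lower and 1 (GATM) higher, against 20.4% of all genes. The median difference of the 7 was -1.59 at day 40 and -1.35 at day 25, beside 0.08 and 0.06 over all genes. In GFP-mCherry+ against GFP-mCherry- cells, 6 of 7 were called at day 40, all higher, where 31.9% of all genes were called, and 6 of 7 at day 25, again all higher, where 28.5% were called. The median of the 7 was 1.21 at day 40 and 2.07 at day 25, beside -0.09 and -0.11 over all genes. In GFP+mCherry+ against GFP-mCherry- cells, 2 of 7 (MB and GATM) were called higher on each day, against 11.8% of all genes called at day 40 and 11.1% at day 25. The medians of the 7 were 0.41 at day 40 and 1.31 at day 25, beside 0.02 and -0.03 over all genes. These 3 comparisons share libraries, so their values are not independent of each other. The count at day 40 between the mCherry+ populations was 1 of 7 without library 13. At day 25 it was 3 of 7 without library 5. Against GFP-mCherry- cells the day 25 count of GFP+mCherry+ cells was 5 of 7 with sample quality weights and 4 of 7 without libraries 13 and 14. The day 40 count was 1 of 7 without any 1 of libraries 10, 13, 15 and 18. With sample quality weights more of all genes were called at day 25 in that comparison as well, as given further below. For the fits that left out libraries, the shares of all genes called are not given beside these counts. A change in these counts is therefore not a result about the 7 genes.

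**Figure D3:**
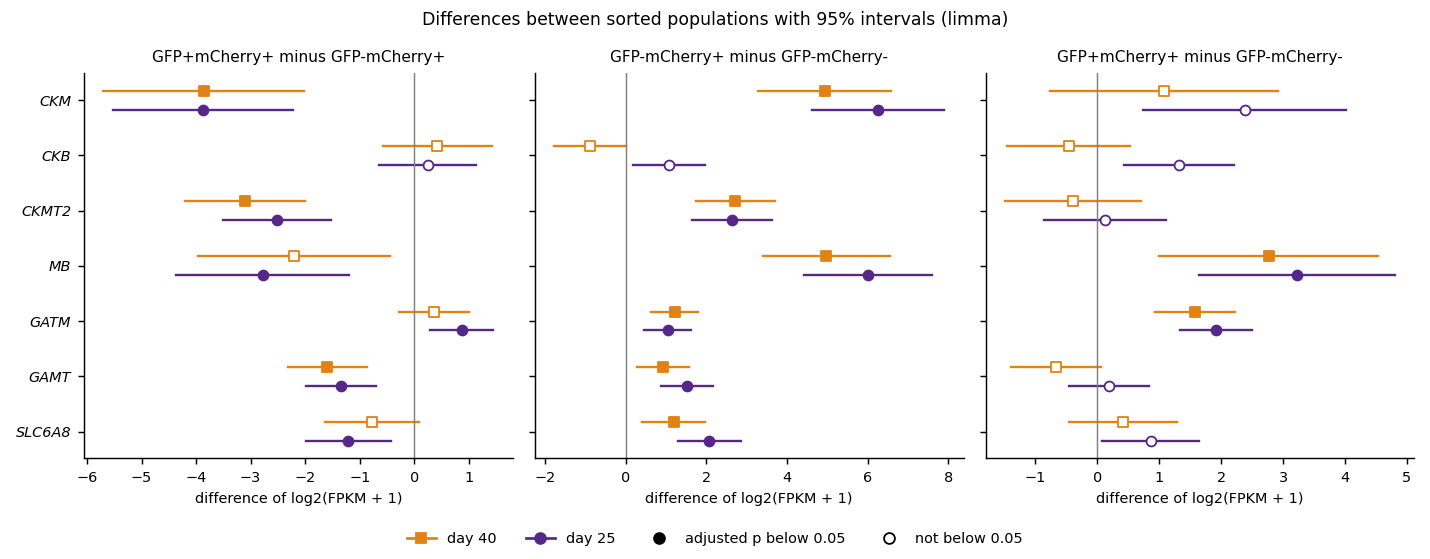
Differences in log2(FPKM + 1) of the 7 tested genes between sorted populations, with 95% intervals, from limma; squares are day 40, circles day 25, and filled symbols have an adjusted p below 0.05. CKM, CKMT2 and GAMT lie below 0 with filled symbols on both days in the left panel, GATM lies above 0 there at day 25, and 6 of 7 genes lie above 0 with filled symbols on both days in the middle panel.

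No gene of the set was called between day 40 and day 25 within a population. In GFP+mCherry+ cells 0 of 7 were called and 1 (GAMT, -0.83 ± 0.34) had an unadjusted p below 0.05, where 4.06% of all genes were called. In GFP-mCherry+ cells 0 of 7 were called and 2 (CKB, -0.93 ± 0.42, and SLC6A8, -0.78 ± 0.37) had an unadjusted p below 0.05, where 4.55% of all genes were called. Without library 11, GAMT (-0.94, adjusted p = 0.0468) and SLC6A8 (-1.33, adjusted p = 0.00749) were called lower at day 40 in GFP-mCherry+ cells. In GFP-mCherry- cells 0 of 7 were called and 1 (CKB, 1.03 ± 0.42) had an unadjusted p below 0.05, where 3.87% of all genes were called. CKB there was at 254 ± 120 FPKM at day 40 and 113 ± 14.2 FPKM at day 25 (SD, n = 3 each), and it was called with sample quality weights (1.15, adjusted p = 0.0339). CKM and MB of GFP-mCherry- cells were at a higher mean at day 40, by 0.81 ± 0.78 and 0.54 ± 0.74, and at -0.24 and -0.66 without library 12. The changes between the days in each population contrast had 0 of 7 called: 0.0135% of all genes were called for GFP+mCherry+ minus GFP-mCherry+, 0.00674% for GFP-mCherry+ minus GFP-mCherry- and 1.24% for GFP+mCherry+ minus GFP-mCherry-. At an unadjusted p below 0.05 these gave 0, 1 (CKB) and 1 (CKB, -1.78 ± 0.63) of the 7.

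Phosphocreatine works beside proteins that move adenine nucleotides, and 13 such genes were tested: carriers of the inner mitochondrial membrane (SLC25A4, SLC25A5 and SLC25A6), pores of the outer membrane (VDAC1, VDAC2 and VDAC3), adenylate kinases and AMP deaminases. In GFP+mCherry+ against GFP-mCherry+ cells, 11 of 13 were called at day 40, 9 lower and 2 higher, with a median difference of -0.82, where 25.5% of all genes were called. At day 25, 10 of 13 were called, 9 lower and 1 higher, with a median of -0.67, where 20.4% of all genes were called. SLC25A4, the heart and muscle form of the carrier, averaged 69.4 ± 24.1 FPKM in GFP+mCherry+ cells (SD, n = 2) and 245 ± 75.4 FPKM in GFP-mCherry+ cells (SD, n = 3) at day 40, a difference of -1.80 ± 0.38 (adjusted p = 0.00312). AK1, the cytosolic adenylate kinase of muscle, differed by -1.70 ± 0.32 at day 40 (adjusted p = 0.00157) and by -1.42 ± 0.28 at day 25 (adjusted p = 0.00352). AMPD2, the AMP deaminase typical of liver, was called higher in GFP+mCherry+ cells on both days, by 1.37 ± 0.24 at day 40 (adjusted p = 0.00119) and 0.74 ± 0.22 at day 25 (adjusted p = 0.0257). In GFP-mCherry+ against GFP-mCherry- cells, 10 of 13 were called at day 40, 9 higher and 1 (AMPD2) lower, and 10 of 13 at day 25, all higher, where 31.9% and 28.5% of all genes were called. SLC25A4 led both, at 2.84 ± 0.34 at day 40 (adjusted p = 2.23e-05) and 2.75 ± 0.34 at day 25 (adjusted p = 2.34e-05). In GFP+mCherry+ against GFP-mCherry- cells 1 of 13 was called at day 40 and 2 of 13 at day 25, all higher, where 11.8% and 11.1% of all genes were called.

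Precursors of creatine, methyl donors and the creatine exporter formed a list of 12 tested genes. In GFP+mCherry+ against GFP-mCherry+ cells, 2 of 12 were called on each day, with medians of -0.04 at day 40 and -0.10 at day 25, where 25.5% of all genes were called at day 40 and 20.4% at day 25. SLC7A2, a carrier of arginine and other cationic amino acids, was higher in GFP+mCherry+ cells by 1.69 ± 0.30 at day 40 (adjusted p = 0.00119) and 1.45 ± 0.27 at day 25 (adjusted p = 0.00214). AHCY, which clears the S-adenosylhomocysteine left by methylation, was lower, with differences of -0.61 ± 0.21 at day 40 (adjusted p = 0.0419) and -0.74 ± 0.19 at day 25 (adjusted p = 0.0121). In GFP-mCherry+ against GFP-mCherry- cells, 5 of 12 were called on each day, 3 higher and 2 lower, where 31.9% of all genes were called at day 40 and 28.5% at day 25. SLC16A12, a creatine exporter, was higher by 2.30 ± 0.37 at day 40 (adjusted p = 0.000243) and 2.01 ± 0.37 at day 25 (adjusted p = 0.000723). MAT2A, which makes S-adenosylmethionine, was higher by 1.31 ± 0.25 at day 40 and 1.38 ± 0.25 at day 25 (adjusted p = 0.00088 and 0.000605). SLC7A1, another carrier of cationic amino acids, was lower, with differences of -0.97 ± 0.21 at day 40 (adjusted p = 0.00242) and -1.57 ± 0.21 at day 25 (adjusted p = 5.38e-05).

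Of 12 other globin genes, 4 passed the filter on low values. None of the 4 was called between the mCherry+ populations on either day, where 25.5% of all genes were called at day 40 and 20.4% at day 25. In GFP-mCherry+ against GFP-mCherry- cells 0 of 4 were called at day 40 and 3 of 4 at day 25, all lower, at low levels, where 31.9% and 28.5% of all genes were called. HBE1, an embryonic haemoglobin chain, led these: it averaged 0.481 ± 0.218 FPKM in GFP-mCherry+ and 2.99 ± 1.37 FPKM in GFP-mCherry- cells at day 25 (SD, n = 3 each), a difference of -1.39 ± 0.26 (adjusted p = 0.000736). The 12 genes together summed to at most 32.6 FPKM in any library, against 480.1 FPKM for MB alone in library 5.

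Of 13 transcription regulators linked to muscle energy genes, 6 were called in GFP+mCherry+ against GFP-mCherry+ cells at day 40, 4 lower and 2 higher (median -0.27), and 6 at day 25, 5 lower and 1 higher (median -0.82), where 25.5% of all genes were called at day 40 and 20.4% at day 25. MYOCD, a coactivator of serum response factor in heart and smooth muscle, averaged 8.08 ± 1.76 FPKM in GFP+mCherry+ cells (SD, n = 2) and 38.2 ± 8.02 FPKM in GFP-mCherry+ cells (SD, n = 3) at day 40, a difference of -2.11 ± 0.38 (adjusted p = 0.00135). At day 25 it differed by -2.05 ± 0.34 (adjusted p = 0.00126). ESRRG, an orphan nuclear receptor, differed by -1.33 ± 0.42 at day 40 (adjusted p = 0.0287) and -1.25 ± 0.37 at day 25 (adjusted p = 0.0272). In GFP-mCherry+ against GFP-mCherry- cells, 7 of 13 were called at day 40, 6 higher and 1 lower (median 0.52), and 9 of 13 at day 25, all higher (median 0.94), where 31.9% of all genes were called at day 40 and 28.5% at day 25. PPARGC1A, a coactivator of mitochondrial genes, was higher by 2.52 ± 0.39 at day 40 (adjusted p = 0.000177) and by 3.09 ± 0.39 at day 25 (adjusted p = 2.92e-05). MEF2A was higher by 1.67 ± 0.20 at day 40 (adjusted p = 2.39e-05) and by 1.50 ± 0.20 at day 25 (adjusted p = 5.38e-05). In GFP+mCherry+ against GFP-mCherry- cells, 5 of 13 regulators were called at day 40 and 3 of 13 at day 25, all higher. Over all genes 11.8% and 11.1% were called there.

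**Figure D4:**
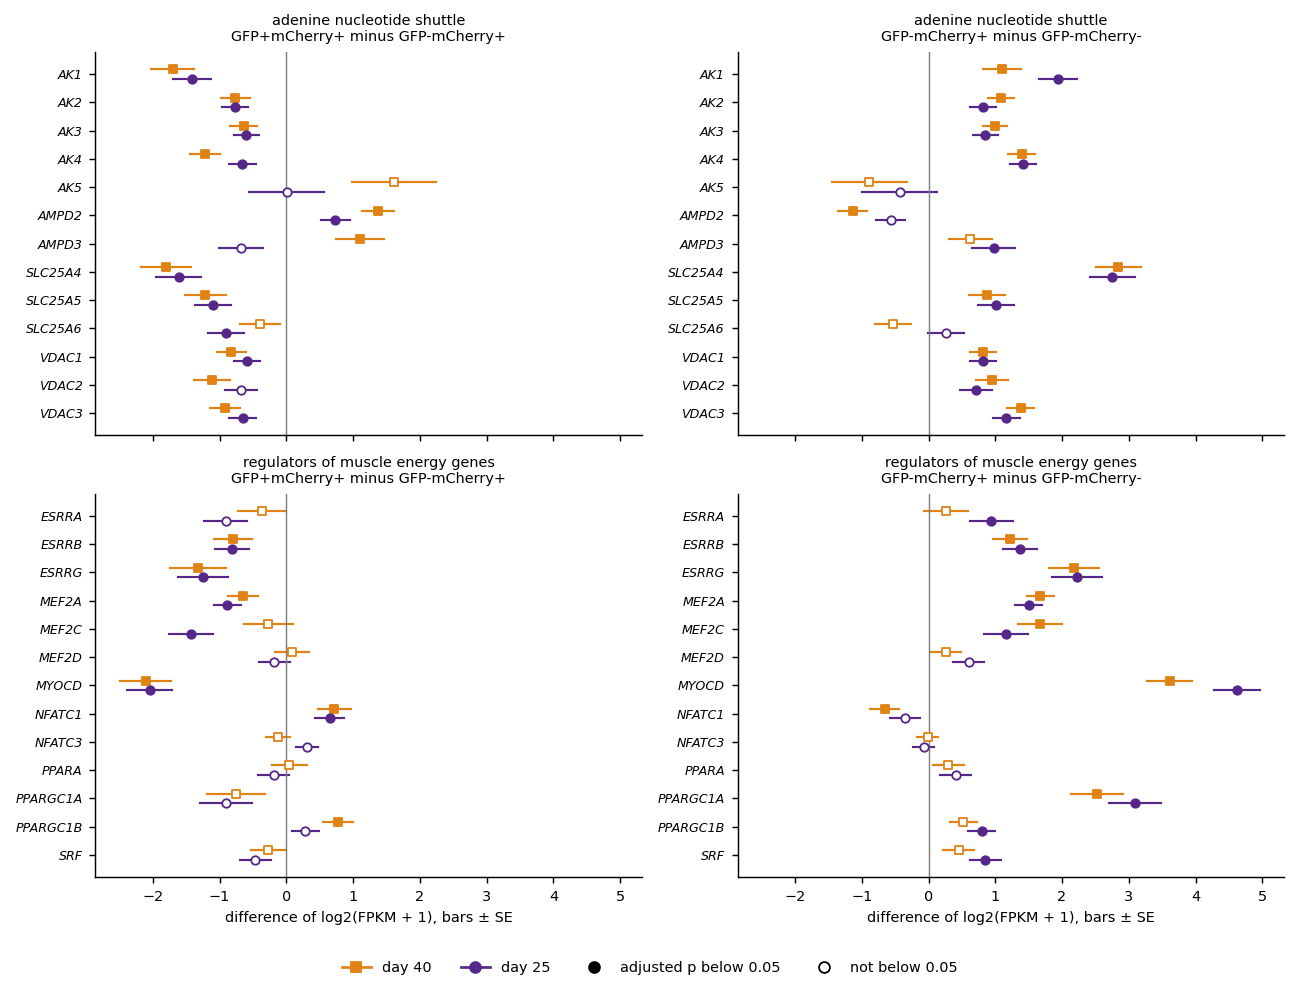
Differences in log2(FPKM + 1) with SE for 13 adenine nucleotide shuttle genes (top) and 13 regulators (bottom), for GFP+mCherry+ minus GFP-mCherry+ (left) and GFP-mCherry+ minus GFP-mCherry- (right); squares are day 40, circles day 25, and filled symbols have an adjusted p below 0.05. SLC25A4 and MYOCD lie farthest below 0 in the left panels on both days and farthest above 0 in the right panels.

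The genes whose log2(FPKM + 1) followed each tested member most closely over the 17 libraries are given as a description. They carry no p, since the libraries fall into 6 groups and differ together in cardiomyocyte marker RNA. For CKM they were FRMD3 (Pearson r = 0.990), HSPB7 (0.986) and FAM162A (0.985), and for MB they were PPP1R1A (0.988), FSD2 (0.985) and TRIM63 (0.985). For CKMT2 they were C4orf3 (0.964), PALM2-AKAP2 (0.960) and MAPK4 (0.959). For GAMT they were CYC1 (0.975), AK1 (0.971) and THAP4 (0.958), and for SLC6A8 they were MPI (0.970), KIAA0141 (0.966) and NDRG4 (0.963). GATM had LRRTM3 (0.928), PDLIM3 (0.922) and SPOCK1 (0.920). CKB had the lowest values, with GGT1 (0.917), PNPLA7 (0.895) and PLXNA1 (0.883).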

How the data were processed

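RNA of 17 libraries from sorted H9-derived cells was measured, and groups were taken from the labels. The authors deposited 1 table of values per gene. Per the submitters' processing notes, the tools were bcl2fastq 2.19, cutadapt, STAR 2.5.2b and Cufflinks 2.1.1 with the build hg19, and their order, settings and strand option are not given in the sources used here. The file header names no unit, and the deposited values were taken as FPKM because of Cufflinks and the range of the values. They hold no counts, so depth is unknown and no counting interval is given. The 20368 rows were summed by gene name to 20218 genes. After a filter of at least 1 FPKM in at least 2 libraries, log2(FPKM + 1) was fitted in limma 3.58.1 (R 4.3.3) with an intensity trend and 6 group means over 17 libraries (11 residual degrees of freedom), and p-values were Benjamini-Hochberg adjusted. The procedure was tested on simulated data. The share of CKM was compared with a two-sided exact permutation test.

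Named genes were the 9 members, SHOX2 and MYH6, and from each context list at most 4 called genes with the smallest adjusted p. Also named, for each member averaging at least 5 FPKM in any group, were the 3 tested non-members with the highest Pearson r. Members, context lists and marker lists were chosen with earlier results of these data known. Alternatives changed the pseudocount, filter, scaling, groups fitted, sample weights, block and libraries. Leaving out libraries 12, 13 and 14 together was chosen after seeing the data. Promoter letters are from the RefSeq promoter table (GRCh38.p14), and shared windows and antisense overlap are from the GENCODE annotation on the same assembly.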

Additional observations from a re-analysis of the deposited data

How the results depend on the processing

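Of 1159 values of single genes under alternatives, 1054 kept their direction and their side of the threshold, 35 lost the call, 33 gained it and 37 changed sign. The cause of these changes was not tested. Counts over all genes are given further below for some of these fits only. Changes in the counts of the 7 genes therefore describe the fits and are not results about the 7 genes. The count of the 7 genes called in GFP+mCherry+ against GFP-mCherry+ cells was 3 to 5 without 1 library at day 25 and 1 to 4 at day 40. For GFP+mCherry+ against GFP-mCherry- cells at day 25 it was 2, against 4 with only the compared groups, 5 with sample quality weights, 4 with the block, 4 without libraries 13 and 14 and 4 without libraries 12, 13 and 14. At day 40 it was 2, against 1 with no filter, 1 with only the compared groups, 1 without libraries 13 and 14, and 1 to 2 without 1 library. Between the days it was 0 to 2 without 1 library in GFP-mCherry+ cells, and 1 with weights and 1 without libraries 12, 13 and 14 in GFP-mCherry- cells; the change between the days of GFP+mCherry+ minus GFP-mCherry- also gave 1 in both. The day 40 minus day 25 share of CKM was -5.73 to 15.0 points without 1 library in GFP+mCherry+ cells, and -2.57 to 9.52 points without 1 library and -2.23 points with group medians in GFP-mCherry- cells.

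Signs changed only for values that were not called. Without 1 library, CKB in GFP+mCherry+ minus GFP-mCherry+ was -0.071 to 0.45 at day 25 and -0.054 to 0.72 at day 40 (-0.22 without libraries 13 and 14, with or without library 12), and its change between the days was -0.30 to 0.50 (-0.075 with weights, -0.47 without libraries 13 and 14, with or without library 12). CKMT2 in GFP+mCherry+ minus GFP-mCherry- was -0.089 to 0.47 at day 25 and -1.30 to 0.52 at day 40 (0.52 without libraries 13 and 14, 0.92 without libraries 12, 13 and 14), and CKM there was -0.25 to 2.39 at day 40. For day 40 minus day 25 in GFP+mCherry+ cells, CKM was -1.82 to 0.82 (0.82 without libraries 13 and 14, with or without library 12), MB -0.88 to 1.04 (-0.14 with weights) and GATM -0.29 to 0.25 (-0.34 with weights). In GFP-mCherry- cells CKM was -0.24 to 1.48, MB -0.66 to 1.17, GAMT -0.090 to 0.17 and SLC6A8 -0.050 to 0.25, and without libraries 12, 13 and 14 they were -0.24 for CKM, -0.66 for MB and -0.020 for GAMT.

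Counts over all genes moved more: GFP+mCherry+ against GFP-mCherry+ cells at day 40 gave 3783 genes, against 1304 with only the compared groups, 2323 with the block and 1757 without libraries 13 and 14, and at day 25 gave 3023, against 7677 with weights. GFP+mCherry+ against GFP-mCherry- cells gave 1641 at day 25, against 6138 with weights and 2758 with the block, and 1751 at day 40, against 525 with only the compared groups and 659 with the block. GFP-mCherry+ against GFP-mCherry- cells at day 25 gave 4234, against 7588 with weights. The labels give the groups no shared replicate numbers, so no pairing comes from the design. The block instead used sets of consecutive library numbers, whose deviations correlated at -0.123 to 0.458, and it changed 5 calls of single genes. In GFP+mCherry+ against GFP-mCherry+ cells, GATM was lost at day 25 (adjusted p = 0.0567) and MB gained at day 40 (adjusted p = 0.0114). At day 25, CKB was gained in GFP-mCherry+ against GFP-mCherry- cells (adjusted p = 0.0173), and CKM and CKB in GFP+mCherry+ against GFP-mCherry- cells (adjusted p = 0.00356 and 0.0155). Unknown depth limits what can be said of CKMT1A and CKMT1B.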

Other observations

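Marker lists that stand beside no single result are given here as values. Epithelial markers summed to 372 to 596 FPKM in GFP+mCherry+, 255 to 287 in GFP-mCherry+ and 721 to 1314 in GFP-mCherry- libraries at day 40. At day 25 they summed to 813 to 955 in GFP+mCherry+, 301 to 472 in GFP-mCherry+ and 1305 to 1608 in GFP-mCherry- libraries. All 8 epithelial markers were called lower in GFP-mCherry+ than in GFP-mCherry- cells on both days, where 31.9% of all genes were called in either direction at day 40 and 28.5% at day 25. Smooth muscle markers, whose cells also express CKB, summed to 869 to 1099.7 in GFP+mCherry+, 784 to 2274 in GFP-mCherry+ and 511 to 1477 in GFP-mCherry- libraries at day 40. At day 25 they summed to 1263 to 1716 in GFP+mCherry+, 808 to 1159 in GFP-mCherry+ and 363 to 905 in GFP-mCherry- libraries. Endothelial markers (3 measured genes) summed to 202 to 225 in GFP+mCherry+, 15.1 to 45.5 in GFP-mCherry+ and 68.9 to 134 in GFP-mCherry- libraries at day 40. At day 25 they summed to 30.3 to 215 in GFP+mCherry+, 14.0 to 35.5 in GFP-mCherry+ and 41.1 to 78.2 in GFP-mCherry- libraries. Only 1 of the 3 was called higher in GFP+mCherry+ than in GFP-mCherry+ cells on each day. Over all genes 25.5% were called there at day 40 and 20.4% at day 25. In GFP+mCherry+ against GFP-mCherry- cells 0 of 3 were called at day 40, and 2 of 3 were called lower at day 25. Over all genes 11.8% and 11.1% were called there.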
